A study of Mus musculus with 6 samples.

Results

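Ddit3, Atf3, Atf4, Asns, Ppp1r15a, Trib3, Chac1, Sesn2, Ddit4 and Psat1 are genes of the integrated stress response, the programme that cells switch on when translation initiation factor eIF2 is phosphorylated. These 10 genes were chosen by their levels on the 6 arrays described here and by how those levels moved together, so the values below that repeat this choice are a description and support nothing. The array's annotation gave a probe to 9 of the 10 genes, with 1 probe each and 2 for Atf4, among 15012 genes tested in all. Trib3, a pseudokinase that is both a target and an inhibitor of the pathway, had no probe in that annotation and is not described further. All 10 probes were bright enough to be tested.

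In this pathway, kinases that sense unfolded protein, missing amino acids, double-stranded RNA or lack of heme phosphorylate eIF2. General translation then falls while the mRNA of the transcription factor Atf4 is translated more. Atf4 induces the transcription factors Ddit3 and Atf3, enzymes and transporters for amino acids, and Ppp1r15a, which guides a phosphatase back to eIF2 and so closes the loop. Hypoxia can engage the same genes.

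RNA came from mouse embryonic hearts dissected at embryonic day 11.5, and each of the 6 single-colour CodeLink arrays carried biotin-labelled RNA from 1 sample. The mutant group comprised 3 samples of hearts in which Dicer, the enzyme that cuts microRNA precursors, was inactivated by a Cre recombinase knocked into the Nkx2.5 locus, which is active in cardiac progenitors and their descendants. The control group comprised 3 samples of control hearts, and their genotype and Cre status are not stated in the labels. Nothing in the labels says whether samples were single embryos, pools or littermates, so each p-value reflects the spread among these samples alone, and that spread may be technical. Cells outside the Nkx2.5 lineage keep Dicer in such a model.

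On the log2 signal scale used throughout, Dicer1 read 7.82, 7.64 and 7.71 on controls 1 to 3 and 6.71, 6.73 and 6.70 on mutants 1 to 3. The groups did not overlap, and the mutant signal was 0.495 of the control signal (log2 difference -1.02 ± 0.09 SE, n = 3 against 3, limma adjusted p = 0.0402). The position of this probe relative to the deleted exons is not known here. Between 74.1% and 78.2% of the spots on an array were flagged above background. Of the cardiomyocyte markers, 14 of 15 had a probe and all 14 were tested. Their summed signal, taken on the linear scale and then as log2, lay between 17.19 and 17.80. In whole hearts, fewer cells of a type and less RNA per cell cannot be told apart.

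The promoters of the stress genes are shown because Atf4 and its partners act through short DNA elements, and because several of these genes were high on the same arrays. Of the 10 genes, all 10 had an entry in the RefSeq promoter table (mouse build GRCm38.p6), 11 promoters in all since Psat1 has 2 starts. The 250 bases before each start were searched on both strands for TGATGNAA, the core of the composite site bound by C/EBP and ATF proteins. They were also searched for TGACGTCA, the cyclic AMP response element, for its shorter core TGACG, which TGACGTCA contains, and for TGACTCA, the AP-1 site. The 5 promoters that held one of the 3 longer elements follow, each read 5′ to 3′ on the gene's own strand. Capitals mark every match to any of the 4 elements, and a match on the opposite strand appears as its reverse complement (TTGCATCA for TGATGNAA, CGTCA for TGACG). Ddit3 lies at chr10:127290543-127290792 (plus strand), Atf3 at chr1:191183334-191183583 (minus), Asns at chr6:7693210-7693459 (minus), Ppp1r15a at chr7:45526269-45526518 (minus) and Chac1 at chr2:119350992-119351241 (plus).
Ddit3: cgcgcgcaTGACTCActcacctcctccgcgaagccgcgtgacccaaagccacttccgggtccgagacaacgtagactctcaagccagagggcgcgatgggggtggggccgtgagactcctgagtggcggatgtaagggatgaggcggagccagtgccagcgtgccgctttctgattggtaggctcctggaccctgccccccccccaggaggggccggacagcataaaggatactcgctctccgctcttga
Atf3: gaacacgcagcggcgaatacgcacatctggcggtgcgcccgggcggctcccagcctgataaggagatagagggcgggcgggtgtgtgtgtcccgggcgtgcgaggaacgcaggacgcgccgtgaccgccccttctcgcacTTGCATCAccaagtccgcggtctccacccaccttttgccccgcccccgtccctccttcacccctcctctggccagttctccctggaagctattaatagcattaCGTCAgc
Asns: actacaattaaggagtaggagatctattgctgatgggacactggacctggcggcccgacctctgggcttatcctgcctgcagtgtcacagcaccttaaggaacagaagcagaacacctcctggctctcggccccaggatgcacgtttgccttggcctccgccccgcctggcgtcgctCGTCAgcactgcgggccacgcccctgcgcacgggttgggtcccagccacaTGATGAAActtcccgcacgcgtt
Ppp1r15a: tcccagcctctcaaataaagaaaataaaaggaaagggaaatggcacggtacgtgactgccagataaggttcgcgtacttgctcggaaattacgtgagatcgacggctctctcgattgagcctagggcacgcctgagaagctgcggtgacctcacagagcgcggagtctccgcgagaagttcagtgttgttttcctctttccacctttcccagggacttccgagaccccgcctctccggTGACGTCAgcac
Chac1: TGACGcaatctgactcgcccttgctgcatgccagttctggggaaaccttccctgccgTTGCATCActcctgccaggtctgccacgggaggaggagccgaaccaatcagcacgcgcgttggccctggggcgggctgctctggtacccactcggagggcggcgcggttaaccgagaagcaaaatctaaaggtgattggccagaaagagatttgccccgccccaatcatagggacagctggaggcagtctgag

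The composite core was found before Atf3, Asns and Chac1, in 3 of the 11 promoters (27.3%), against 3.45% of 32851 mouse promoters of the same length. Its first base lay 110 bases before the Atf3 start, 23 before the Asns start and 193 before the Chac1 start. The full cyclic AMP response element stood only before Ppp1r15a, 12 bases upstream of the start (9.09% of the 11, against 1.55% of all). The shorter core TGACG was present in 6 of the 11 (54.5%, against 17.8%), namely those of Atf3, Atf4, Asns, Ppp1r15a, Trib3 and Chac1. The AP-1 letters occurred only before Ddit3, 242 bases upstream (9.09%, against 4.46%). Sesn2, Ddit4 and Psat1 held none of these letters in the window, which says nothing of sites elsewhere. A match is a run of letters and not a measured binding site. The genes were listed as parts of the Atf4 and Ddit3 pathway, so these shares say nothing about the pattern on the arrays.

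Ddit3, also known as CHOP, is a transcription factor of the C/EBP family that is tied to prolonged stress and cell death. Its signal was 11.82, 11.68 and 9.89 on controls 1, 2 and 3 and 9.80, 10.14 and 12.14 on mutants 1, 2 and 3. Controls 1 and 2 and mutant 3 were high, the other 3 arrays were low, and the groups overlapped. The lowest of the high arrays stood 1.54 above the highest of the low ones. From lowest to highest the signal spanned 2.34 log2 units, or 5.06-fold, and 0.779% of all genes spanned more. In the authors' own normalized intensity, a linear scale, the same 6 arrays read 51.6, 42.1 and 11.6 in controls and 10.9, 14.2 and 60.6 in mutants. The difference between mutant and control means was -0.44 ± 0.74 (SE, 95% interval -2.21 to 1.33, limma adjusted p = 0.87).

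Atf3, a stress-induced transcription factor that can repress the same targets, had the widest swing of these genes. It read 11.19, 10.83 and 6.97 on controls and 7.96, 7.75 and 9.33 on mutants, so that controls 1 and 2 were highest, mutant 3 came next and control 3 was lowest. The span of 4.22 log2 units, 18.7-fold, ranked 6 among the 15012 genes. The authors' normalized intensity was 31.5, 23.2 and 0.954 in controls and 2.56, 2.12 and 7.88 in mutants. The mutant minus control difference was -1.31 ± 1.11 (95% interval -3.96 to 1.33, limma adjusted p = 0.713).

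**Figure D1:**
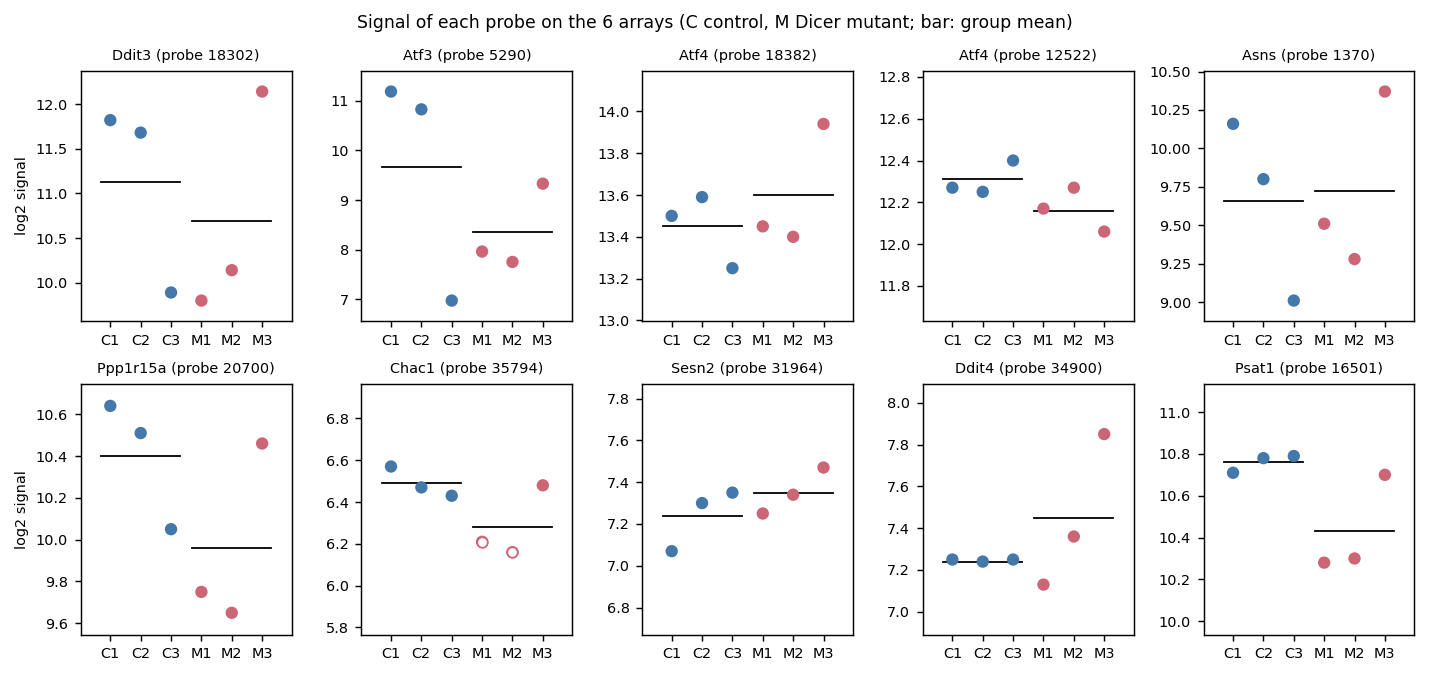
Log2 signal (vertical axis, a separate scale in each panel) of the 10 probes on controls 1 to 3 (C1 to C3, blue) and Dicer mutants 1 to 3 (M1 to M3, red); bars are group means, and open points mark arrays where the probe was not flagged above background. Ddit3, Atf3, Asns and Ppp1r15a are high on C1, C2 and M3 and low on C3, M1 and M2, whereas Sesn2 and Psat1 are not.

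Atf4, the transcription factor at the centre of the pathway, is controlled mainly by translation, which an array does not measure. Its brighter probe (18382) read 13.50, 13.59 and 13.25 on controls and 13.45, 13.40 and 13.94 on mutants. The same 3 arrays were highest as for Ddit3, but controls 1 and 2 exceeded mutants 1 and 2 by little, and only mutant 3 stood clearly above the rest. The second Atf4 probe (12522) read 12.27, 12.25 and 12.40 on controls and 12.17, 12.27 and 12.06 on mutants. There mutant 3 was lowest and control 3 highest, the reverse of the first probe, and r between the 2 probes was -0.89 over the 6 arrays (Spearman's rho -0.71). Where each probe lies in the transcript is not known here, so the direction of Atf4 across arrays is uncertain. The group differences were 0.15 ± 0.17 for probe 18382 (limma adjusted p = 0.799) and -0.14 ± 0.10 for probe 12522 (adjusted p = 0.663).

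Ppp1r15a, also known as GADD34, is the subunit that directs protein phosphatase 1 to eIF2. It read 10.64, 10.51 and 10.05 on controls and 9.75, 9.65 and 10.46 on mutants, with the same 3 arrays on top and control 3 in between. The difference was -0.44 ± 0.25 (95% interval of the mutant minus control difference -1.05 to 0.16, limma adjusted p = 0.593).

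Asns, asparagine synthetase, is an amino acid enzyme and a classical Atf4 target. Its signal was 10.16, 9.80 and 9.01 on controls and 9.51, 9.28 and 10.37 on mutants, again with mutant 3 and controls 1 and 2 on top. The span was 1.36 log2 units, and the group difference was 0.06 ± 0.38 (limma adjusted p = 0.969). Psat1, a phosphoserine aminotransferase of serine synthesis, had another pattern than Asns. It read 10.71, 10.78 and 10.79 on controls and 10.28, 10.30 and 10.70 on mutants. Every control lay above every mutant, though mutant 3 and control 1 were almost level. Psat1 differed by -0.33 ± 0.13 between the groups (95% interval -0.66 to -0.01), with an unadjusted limma p of 0.0436 and an adjusted p of 0.491 over all probes.

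Chac1, an enzyme that degrades glutathione, read 6.57, 6.47 and 6.43 on controls and 6.21, 6.16 and 6.48 on mutants. Mutants 1 and 2 were not flagged above background, so their values there are only bounds. The difference was -0.21 ± 0.12 (limma adjusted p = 0.589). Chac1 had the same 3 highest arrays as Ddit3, though in another order, within a span of 0.41. The lowest of those 3 stood only 0.04 above the next array. Sesn2 and Ddit4 both restrain the growth kinase complex mTORC1. Sesn2 read 7.07, 7.30 and 7.35 on controls and 7.25, 7.34 and 7.47 on mutants, with control 1 lowest where Ddit3 was high. Ddit4 read 7.25, 7.24 and 7.25 on controls and 7.13, 7.36 and 7.85 on mutants, and mutant 3 alone stood out. Their group differences were 0.11 ± 0.12 for Sesn2 (limma adjusted p = 0.773) and 0.20 ± 0.18 for Ddit4 (limma adjusted p = 0.733).

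No member was called between mutant and control hearts at an adjusted p under 0.05 (limma, Benjamini-Hochberg over 17589 probes). Over all probes tested, 8 (0.0455%) were called, and 1734 had an unadjusted p under 0.05. Among the 9 genes 1 (Psat1) had an unadjusted p under 0.05, and the adjusted p ran from 0.491 to 0.969. The differences were below 0 in 5 genes and above 0 in 4, with a median of -0.21 against 0.007 over all genes. That median is the value of Chac1, the gene near background. The groups did not overlap in 1 of the 9 genes, against 14.8% of all genes. A span of at least 1 log2 unit occurred in 3 of the 9 (33.3%), against 11.8% of all genes. The spread within groups was wider too, with a median SD of 0.26 against 0.17 over all genes. The wide intervals for Ddit3 (-2.21 to 1.33) and Atf3 (-3.96 to 1.33) hold 0 as well as large differences, reaching further below 0 than above it. These samples do not settle whether either gene differs between the groups.

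Titles of the arrays carry a number shared by mutant 1 and control 1, by mutant 2 and control 2, and by mutant 3 and control 3. Between arrays of the first number the mutant minus control difference was -2.03 for Ddit3 and -3.23 for Atf3. The second number gave -1.54 for Ddit3 and -3.08 for Atf3, and the third turned to 2.24 for Ddit3 and 2.36 for Atf3. Asns (-0.65, -0.53 and 1.36) and Ppp1r15a (-0.89, -0.85 and 0.41) turned the same way. Psat1 stayed below 0 in all 3 (-0.44, -0.48 and -0.09), and Sesn2 stayed above 0 (0.18, 0.04 and 0.11). Without mutant 3 and control 3, 5 of the 9 genes were called, Atf3 (-3.16), Ddit3 (-1.78), Ppp1r15a (-0.87), Asns (-0.59) and Psat1 (-0.46). In that comparison of mutants 1 and 2 with controls 1 and 2, 22.6% of all probes were called. The start of the array title was read here as a slide, though the labels do not say what it means. It was shared only by mutants 1 and 2 and control 1. With that slide as a block the difference rests on those 3 arrays, 4 of the 9 genes were called (Atf3, Ddit3, Ppp1r15a and Asns, all lower in mutants) and 10.7% of all probes were called. The genes were chosen by this pattern, so nothing is read from either count of members.

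**Figure D2:**
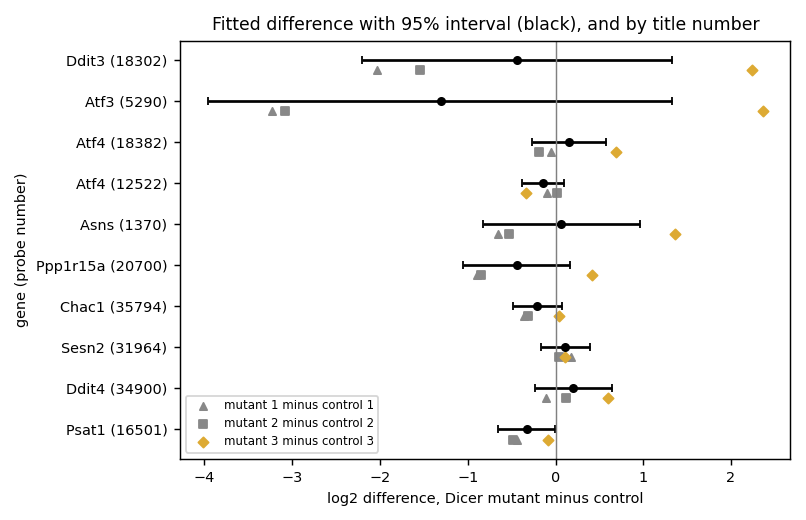
Mutant minus control difference in log2 signal (horizontal axis) for each probe (vertical axis); black points and bars are the fitted difference and its 95% interval over 3 against 3 arrays, and coloured marks are the differences between arrays that share a title number. For Ddit3, Atf3, Asns and Ppp1r15a the third number lies right of 0 and the first and second lie left of it.

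Among the 9 genes, 6 (Ddit3, Atf3, Atf4 by its brighter probe, Asns, Ppp1r15a and Chac1) had controls 1 and 2 and mutant 3 as their 3 highest arrays. For Atf4 and Chac1 the gap to the next array was only 0.05 and 0.04. The same 3 arrays were highest for 14.8% of the 14990 genes with a value on every array and lowest for 17.9% of them. Among the 1762 of those genes that spanned at least 1 log2 unit, as Ddit3, Atf3 and Asns did, they were highest for 30.7% and lowest for 18.5%. Over the 36 pairs of members, Pearson's r across the 6 arrays ran from -0.48 (Atf3 with Sesn2) to 0.95 (Ppp1r15a with Chac1). The median was 0.56, and 9 pairs (25%) reached 0.8, against a median of 0.02 and 6.2% over all pairs of genes. All points of such a correlation share the array, its labelling and its normalization, and the genes were chosen for it, so no p is given.

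With Ddit3, r was 0.91 for Asns (rho 0.83), 0.90 for Ppp1r15a (rho 0.66), 0.86 for Atf3 (rho 0.66), 0.79 for Atf4 (rho 0.77) and 0.76 for Chac1 (rho 0.77). It was lower for Psat1 (0.59, rho 0.20) and Ddit4 (0.56, rho 0.54), and near 0 for Sesn2 (-0.05, rho 0.20). An r at least as high as that of Asns was held by 2.82% of all genes, and as that of Chac1 by 12.4%. The 6 Ddit3 levels fall into separate sets of 3, and a relation within a set of 3 cannot be tested. Without mutants 3 and 1, the 2 arrays farthest from the Ddit3 median, r with Ddit3 was 1.0 for Atf3, 0.97 for Asns, 0.89 for Ppp1r15a, 0.89 for Atf4, 0.68 for Chac1, 0.40 for Psat1, -0.53 for Ddit4 and -0.73 for Sesn2. The 4 arrays then left are 2 of the high and 2 of the low set, so these values repeat the split by which the genes were chosen. With each group's mean taken out, r with Ddit3 was 0.97 for Ppp1r15a, 0.95 for Asns, 0.95 for Atf4, 0.86 for Atf3, 0.86 for Chac1, 0.74 for Ddit4, 0.67 for Psat1 and 0.06 for Sesn2.

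**Figure D3:**
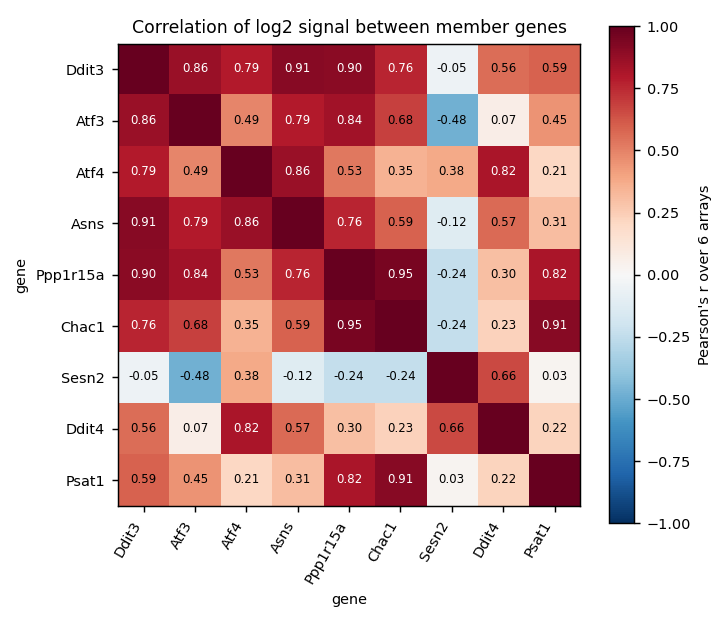
Pearson's r of log2 signal over 6 arrays between the 9 member genes (both axes), from -1 (blue) to 1 (red), with the value in each cell. Ddit3, Atf3, Asns and Ppp1r15a form a block of high r, and Sesn2 is near or below 0 with most genes.

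The 6 genes most like Ddit3, among genes spanning at least 1 log2 unit, were Hspa1b (r = 0.990), Stc2 (0.988), Lims2 (0.987), Hspa1a (0.980), Hk2 (0.978) and Slc28a3 (0.974). Hspa1a and Hspa1b encode inducible heat shock chaperones and are near-identical copies that an array may not separate. Hspa1b read 10.71, 10.30 and 8.90 on controls and 8.43, 8.99 and 10.95 on mutants. Stc2, a secreted glycoprotein and known stress target, read 8.63, 8.28 and 7.40 on controls and 7.41, 7.48 and 8.78 on mutants. Hk2, a hexokinase of glycolysis, read 11.31, 11.24 and 10.20 on controls and 10.48, 10.42 and 11.61 on mutants. All of these were high on the arrays where Ddit3 was high. Of the 1762 genes with such a span, 103 (5.85%) had an r of at least 0.9 with Ddit3 and 102 had one of -0.9 or lower. The genes most like the mean of the 9 members were Stfa3 (0.985), Isca1 (0.982), Lingo2 (0.981), Scoc (0.981), Stc2 (0.978) and Reep2 (0.978).

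**Figure D4:**
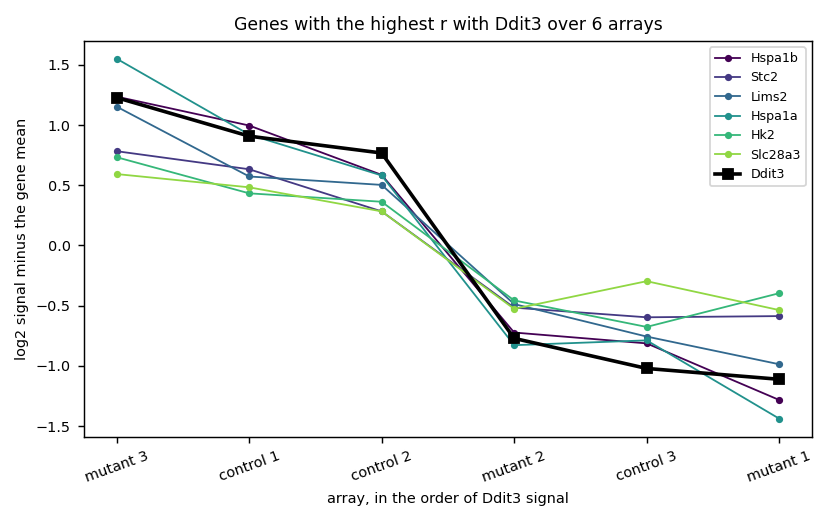
Log2 signal minus each gene's mean (vertical axis) on the 6 arrays in the order of Ddit3 signal (horizontal axis), for Ddit3 (black squares) and the 6 genes with the highest r with it. All 7 lines are above 0 on mutant 3, control 1 and control 2 and below 0 on mutant 2, control 3 and mutant 1.

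Upstream of the members, 18 of 24 listed eIF2 kinases and eIF2 factors were tested, and 0 were called (limma, all probes). Of the 18, 4 had an unadjusted limma p under 0.05, against 1509 of all 15012 genes tested. The list's median difference was 0.03, and its median r with Ddit3 was -0.50. Eif2ak3, the kinase PERK that senses unfolded protein in the endoplasmic reticulum, read 7.61, 7.58 and 7.92 on controls and 8.39, 8.48 and 8.28 on mutants. Its groups did not overlap, and the difference was 0.68 ± 0.13 with a limma adjusted p of 0.161. Eif2ak1, the heme-regulated kinase, differed by -0.38 ± 0.11 (limma adjusted p = 0.297).

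Genes beside or downstream of the members gave 0 calls in each list as well (limma). An unadjusted p under 0.05 was held by 1 mTORC1 regulator, 1 hypoxia-inducible gene, 1 p53 target, 2 immediate early genes and 2 mitochondrial genes. Among 30 tested bZIP partners and other Atf4 or Ddit3 targets, 0 had an unadjusted p under 0.05, and the median difference was -0.01. The smallest p values there belonged to Nfe2l2, an antioxidant response factor (0.39 ± 0.17), and Cebpd (-0.33 ± 0.16). In that list 6 genes had an r of at least 0.8 with Ddit3, namely Stc2, Bcl2l11, Ndrg1, Atf2, Vldlr and Tnfrsf10b, and 5 had an r of -0.8 or lower (Sesn3, Trib1, Jun, Avil and Atg5), with a median of 0.30 over the list. Of 22 amino acid synthesis and transport genes, 18 were above 0, with a median difference of 0.14. In 9 of the 22 the groups did not overlap (14.8% over all genes), against 1 to 4 genes in each other pathway list. Slc7a5 was among the 9 but lower in mutants (-0.26), with mutant 1 at 6.35 just under control 3 at 6.36. The members Asns and Psat1 are not in this list. Of the 22, 6 had an unadjusted limma p under 0.05, against 1509 of all 15012 genes. Bcat1, a branched-chain aminotransferase, differed by 0.62 ± 0.13, but its second probe by 0.01. Slc7a1, a cationic amino acid transporter, differed by 0.43 ± 0.10 and its other probes by 0.18, 0.25 and -0.03. The 21 cytosolic aminoacyl-tRNA synthetases had a median difference of 0.08 with 14 above 0, and 2 had an unadjusted p under 0.05, Lars (0.37 ± 0.09, its other probe 0.05) and Iars (0.43 ± 0.11). Median r with Ddit3 was 0.19 for the amino acid genes and -0.25 for the synthetases.

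For the unfolded protein response of the endoplasmic reticulum, 24 genes had a median difference of 0.12 with 16 above 0, 3 with an unadjusted p under 0.05 and a median r of -0.44 with Ddit3. Hsp90b1, a chaperone of the endoplasmic reticulum, differed by 0.46 ± 0.11, and Derl2, a factor of its degradation pathway, by 0.47 ± 0.16, though its other probe differed by 0.06. The 14 mTORC1 regulators had a median difference of 0.12, with Mtor at 0.36 ± 0.12 and Rptor at 0.24 ± 0.18 (its other probes at -0.06 and 0.10). The 11 mitochondrial chaperones and proteases had a median of 0.06, with Hspa9 at 0.44 ± 0.13 and Clpp at 0.79 ± 0.32. Among 18 p53 target genes the median was 0.11. Cdkn1a, the cell cycle inhibitor p21, read 8.90, 8.66 and 7.93 on controls and 9.75, 10.17 and 10.10 on mutants, a difference of 1.51 ± 0.26 with a limma adjusted p of 0.141. Pmaip1, a pro-apoptotic BH3-only gene, differed by 0.41 ± 0.20. Cdkn1a followed the groups and Ddit3 did not, and r between them was 0.07.

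Of the 10 pathway lists, the hypoxia-inducible genes had the highest median r with Ddit3. Of 18 tested, 10 had an r of at least 0.8 with Ddit3 and 0 one of -0.8 or lower, with a median over the list of 0.87, against 10.2% and a median of -0.04 over all genes. Their median centred signal was 0.14, 0.04 and -0.45 on controls and -0.28, -0.22 and 0.67 on mutants. Vegfa, the endothelial growth factor, read 10.03, 9.65 and 8.92 on controls and 9.09, 9.18 and 10.91 on mutants. The list's median difference between groups was 0.04, with Pfkp (0.62 ± 0.26) and Aldoa (0.33 ± 0.28), both enzymes of glycolysis, having the smallest p. Of 24 immediate early genes, which respond quickly to growth signals, 5 had an r of at least 0.8 with Ddit3 (Fosb, Gadd45g, Nr4a1, Ier3 and Egr1) and 3 one of -0.8 or lower (Klf2, Jun and Dusp2). Their median r was 0.56 and their median difference -0.05, with Egr2 at -0.81 ± 0.26 and Dusp1 at -0.27 ± 0.11. The part of either list in the members' levels was not tested.

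**Figure D5:**
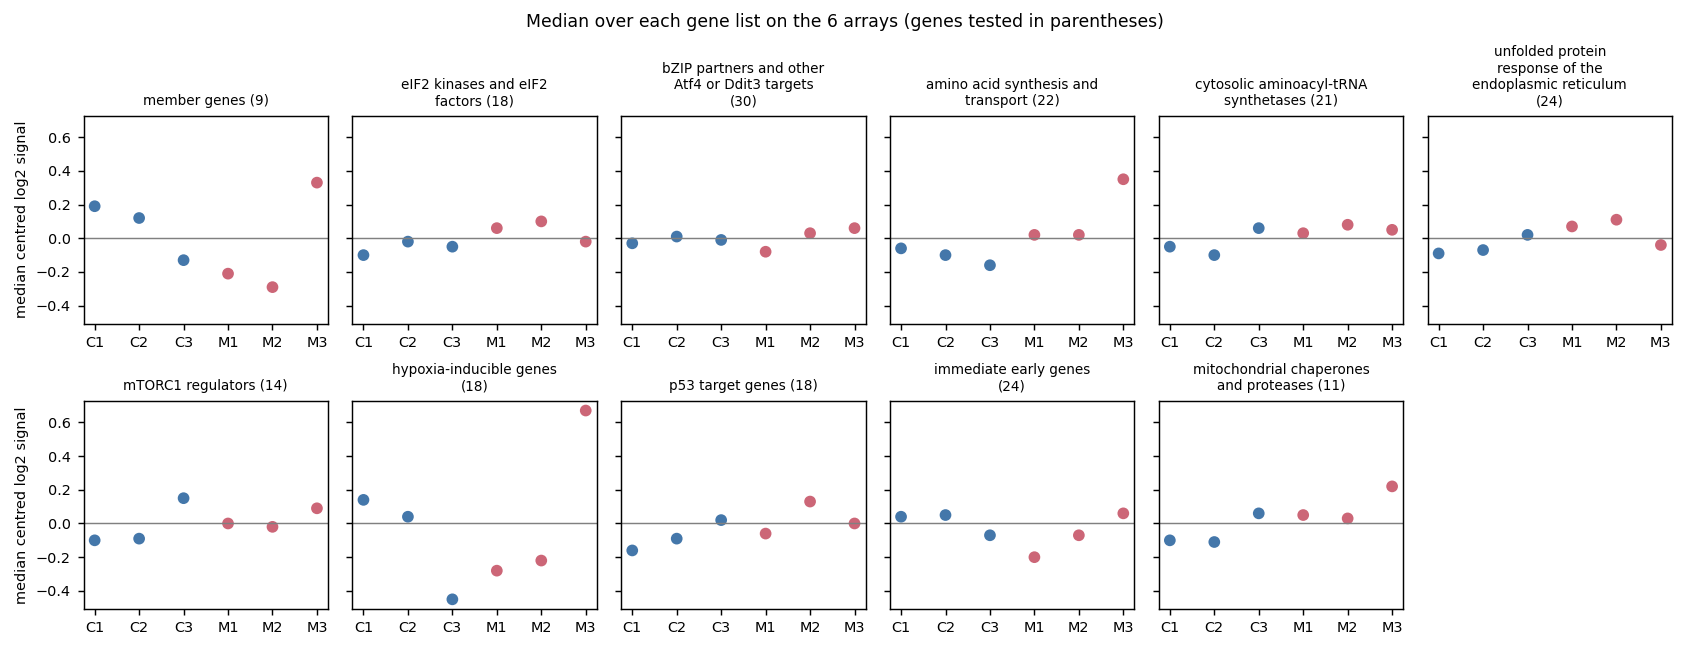
Median, over the genes of each list, of log2 signal minus the gene's mean (vertical axis) on controls (C, blue) and Dicer mutants (M, red); the number of genes tested stands in parentheses. The members, hypoxia-inducible genes and immediate early genes are above 0 on C1, C2 and M3 and below 0 on C3, M1 and M2. The immediate early medians are small, from -0.2 to 0.06. The eIF2 factors and the unfolded protein response do not share this pattern.

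Several measures of the whole arrays moved with the members. The first principal component computed without the members took 53.8% of the variance and scored 36.9, 26.1 and -20.6 on controls and -18.3, -29.9 and 5.75 on mutants. Its r was 0.97 with Atf3, 0.93 with Ppp1r15a and 0.85 with Ddit3, but 0.43 with Atf4 and -0.49 with Sesn2. The share of spots above background was 75.3%, 76.7% and 76.5% on controls and 78.2%, 78.0% and 74.1% on mutants, and its r with Ddit3 was -0.82. Over the members that r ran from -0.83 with Chac1 to -0.13 with Sesn2, and it was -0.49 with Atf3. Epicardial markers (9 of 10 tested) had a summed log2 signal of 13.58, 13.46 and 12.65 on controls and 12.84, 12.57 and 13.03 on mutants, highest on the same 3 arrays. A sum follows its brightest genes, and the epicardial genes did not share 1 pattern: r with Ddit3 was above 0 for 5 of the 9 and below 0 for 4, with a median of 0.29, from -0.69 for Wt1 to 0.99 for Krt19. Their median centred signal on mutant 3 was -0.09. Neural markers (8 of 11 tested) gave 11.27, 11.12 and 10.57 on controls and 10.64, 10.54 and 10.81 on mutants, also highest there as a sum. Their r with Ddit3 ran from -0.73 (Tubb3) to 0.92 (Ednrb) with a median of 0.30, and their median centred signal was -0.11 on mutant 3 and -0.12 on control 3. The cardiomyocyte sum was lowest there, at 17.19, 17.49 and 17.80 on controls and 17.67, 17.71 and 17.54 on mutants, and 11 of the 14 genes had an r below 0 with Ddit3 (median -0.55). The endothelial sum (10 of 12 tested) was also lowest there, between 13.21 and 13.63, but 7 of the 10 genes had an r above 0 with Ddit3 (median 0.35), and Klf2 had one of -0.94. The part of these measures in the members' levels was not tested.

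Erythroid sums (11 of 14 tested) were highest on the same 3 arrays, within a range from 16.84 to 17.02, and leukocyte and platelet sums (9 of 13) were lowest there, within 11.02 to 11.50. The erythroid sum follows its brightest genes, the globins. Of the 11 erythroid genes, 4 spanned at least 1 log2 unit, the widest being Slc4a1 (2.49) and Alas2 (1.9). Over the genes of these lists the median r with Ddit3 was 0.42 for erythroid and -0.09 for leukocyte and platelet markers. It was above 0 for 9 erythroid genes and below 0 for 2, and for 4 and 5 of the leukocyte and platelet genes. The sums of the remaining marker lists did not set these 3 arrays apart. They lay for cushion mesenchyme between 13.03 and 13.24, for liver between 10.88 and 11.50 and for foregut between 9.91 and 10.19. In every cell type list 0 genes were called (limma) and at most 2 had an unadjusted p under 0.05. The gene with the smallest p in each was Tnni3 (0.40), Cd34 (-0.37), Vcan (0.63, its other probe 0.06), Bnc1 (-1.19), Gata1 (-0.68), Ppbp (0.64), Apoa2 (0.19), Ednrb (-0.48) and Krt5 (0.27), as log2 differences. Xist, expressed from the inactive X chromosome, read 5.91, 8.71 and 9.91 on controls and 10.43, 6.19 and 10.02 on mutants. The Y-linked Eif2s3y read 8.90, 8.13 and 6.09 on controls and 6.33, 8.89 and 6.23 on mutants. Neither of these probes divided the arrays as Ddit3 did. On control 2 both were flagged above background, Xist at 8.71 and Eif2s3y at 8.13. Whether that sample pooled embryos was not tested. A second Xist probe (26361) spanned only 0.39 log2 units. Y-linked Kdm5d read 8.96, 8.92 and 8.51 on controls and 8.71, 8.64 and 8.75 on mutants. Its 3 highest arrays were those of Ddit3, within a span of 0.45. Kdm5d did not follow Eif2s3y, since it was higher on mutant 3 (8.75) than on mutant 2 (8.64), where Eif2s3y read 6.23 and 8.89. This Kdm5d probe is therefore not read as a measure of sex.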

How the data were processed

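Each array's deposited file holds, per spot, a mean and a local background intensity, a subtracted intensity and the authors' normalized intensity, per the file headers. The scanner's make and settings are not known here. The series' value table holds the authors' normalized intensity, on a linear scale with column medians between 1.83 and 2.06 and blank where a spot was not flagged good. The subtracted values equalled mean minus background, to within 1e-04. Each array carried 36227 spots, of which 21676 have exactly 1 gene in the platform annotation, 204 have several and the rest none. Only the first were tested.

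In limma 3.58.1 (R 4.3.3), normexp with an offset of 50 corrected the spot means for background, and log2 values were then quantile-normalized. Normexp with an offset pulls differences of dim probes towards 0. A probe was tested when flagged above background on at least 3 of 6 arrays (17589 probes, 15012 genes). The groups, 3 arrays each from the labels, were compared by a two-sided test with lmFit and eBayes, adjusted by Benjamini-Hochberg. A gene with several probes was read from the brightest. Correlations and motif searches used Python 3.11.15 with pandas 2.3.3 and scipy 1.17.1. The number of arrays limits the precision.

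The members and gene lists were chosen with earlier results of these data known. All members, Dicer1, the 2 genes of smallest p in each pathway list, 1 in each cell type list and the 6 most correlated genes were to be named. Clone names were left out of the last. Vegfa, Slc7a5 and genes named for an r with Ddit3 of at least 0.8 or at most -0.8 were chosen after their values were seen. So were the cell type markers named for their r or span. Alternatives changed background correction, normalization, filter, block, probe choice and the arrays included.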

Additional observations from a re-analysis of the deposited data

How the results depend on the processing

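The 8 probes called became 4 with the subtracted intensity, 5 with the series' value table, 0 with the title number as a replicate block and 1877 with the slide as a block. Leaving out 1 array at a time, or both arrays of a title number, gave between 0 and 3974 calls. The number of members called, 0, was 4 with the slide block and between 0 and 5 when arrays were left out. It was 0 under the other alternatives, the replicate block included, where the smallest member adjusted p was 0.693. Arrays of the same number did not deviate together (correlations of deviations 0.01, -0.48 and -0.38). Deviations from a mean of 3 arrays depend on each other, so these values cannot decide whether the number pairs the samples. The labels do not say what the number means. Asns reversed to -0.769 with the slide block and to -0.589 without mutant 3 and control 3, and lay between -0.589 and 0.418 over the arrays left out. The median member difference of -0.209 ranged between -0.457 and 0.108 when arrays were left out, and was -0.426 with the slide block. It was -0.347 with the subtracted intensity, -0.342 with an offset of 16, -0.351 with the authors' normalized intensity, -0.148 with the series' value table and -0.137 over genes above background on all 6 arrays. Chac1, whose value it is, moved from -0.209 to -0.602, -0.361 and -0.559 with the subtracted intensity, the smaller offset and the normalized intensity. The Ddit3 difference rose to 0.354 without the arrays of the first number and 0.108 without those of the second. Without control 3, 379 probes were called and the smallest member adjusted p was 0.0514. The median pairwise r, 0.562, ranged between 0.363 and 0.795. It was lowest without mutant 3. Over the values of single member probes under all alternatives, 160 kept their direction and side of the threshold, 9 changed sign without passing it, 7 passed it in the same direction, and 2, both of Asns, passed it with the sign changed. The causes were not tested beyond the arrays each alternative leaves out. Chac1 lies near background on mutants 1 and 2, which limits its values.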
